A study of Homo sapiens with 8 samples.

Results

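The promoter windows of human chromosome 19 whose gene does not carry a ZNF name were followed in DNA from RPE1, a human retinal pigment epithelial line immortalised with telomerase. Of the 19957 promoter windows in the deposited count table, 1471 lay on chromosome 19. Leaving out the 241 whose gene symbol was ZNF and a number left 1230 windows, or 6.16% of the table. Each window was 2001 bp long and centred on an annotated gene start in build hg38, and 888 of the 1230 (72.2%) could be given a gene symbol by position. The other 342 windows are known only by Ensembl identifier, and 19 of them had their centre inside the body of a ZNF gene, so a few zinc finger promoters may remain among them.

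OGAP-seq is a sequencing method in which DNA fragments that carry oxidative base damage are pulled down before sequencing. Cells depleted (KD) of NuMA, also called TDIF in the labels, a protein of the nucleus and the spindle poles, were set against WT cells, to ask how depletion changes oxidative damage over the genome. There were 2 libraries in each of 4 groups, namely KD OGAP, WT OGAP, KD input and WT input, where input is the same kind of DNA without the pull-down. KD cells are the cells after doxycycline and WT cells had none, so the effect of doxycycline cannot be told apart from that of depletion. The labels do not say how NuMA was depleted, whether the cells were 1 clone, or whether replicate libraries had separate cultures behind them. A p-value here thus measures only how these libraries spread, and that spread may be technical.

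Chromosome 19 is the most gene-dense human chromosome and is rich in GC. It carries large clusters of related genes, among them leukocyte receptors, kallikreins, carcinoembryonic antigen genes and olfactory receptors, beside many housekeeping genes. Guanine is the base most readily oxidised, and 8-oxoguanine is removed by base excision repair, so GC content and damage are often looked at together at promoters. In the table the windows of chromosome 19 lay closer together than elsewhere, with a median distance to the next window of 19284 bp against 53063 bp for the other windows. Their promoters were barely richer in GC, with a median of 64.3% over 730 promoters against 63.0% over 11148 promoters of other chromosomes. These values cover 250 bases before to 50 bases after the RefSeq gene start, not the whole window.

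The 8 libraries held 368593 to 771138 promoter reads, of which 29483 to 53644 fell in the chromosome 19 windows. The median chromosome 19 window held 35 and 27 reads in KD OGAP, 24 and 24 in WT OGAP, 40 and 38 in KD input, and 44 and 47 in WT input. Over these windows the 2 libraries of each group differed beyond counting noise, at 1.84 to 2.01 chi-square units per degree of freedom. Of the 1230 windows, 303 (24.6%) overlapped another window, where the authors' counting may have left out shared reads, and 33 had no read in any library. The NUMA1 window on chromosome 11 held 11 and 4 reads in KD OGAP, 6 and 5 in WT OGAP, 8 and 16 in KD input, and 2 and 1 in WT input. DNA reads check neither the depletion nor the cell type.

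The promoters of 6 windows are shown because they stand at opposite ends of the pull-down in WT cells. BBC3, ACSBG2 and GP6 were among the windows most enriched over input, and CKM, CEBPA and RSPH6A among those most depleted. Each sequence runs 5′ to 3′ on the strand of the gene, from 250 bases before to 50 bases after the RefSeq gene start (GRCh38.p14), and capitals mark the CG dinucleotides. The promoters are BBC3 at chr19:47232618-47232917 (minus strand), ACSBG2 at chr19:6135383-6135682 (plus strand), GP6 at chr19:55038215-55038514 (minus strand), CKM at chr19:45322826-45323125 (minus strand), CEBPA at chr19:33302485-33302784 (minus strand) and RSPH6A at chr19:45815259-45815558 (minus strand).
BBC3: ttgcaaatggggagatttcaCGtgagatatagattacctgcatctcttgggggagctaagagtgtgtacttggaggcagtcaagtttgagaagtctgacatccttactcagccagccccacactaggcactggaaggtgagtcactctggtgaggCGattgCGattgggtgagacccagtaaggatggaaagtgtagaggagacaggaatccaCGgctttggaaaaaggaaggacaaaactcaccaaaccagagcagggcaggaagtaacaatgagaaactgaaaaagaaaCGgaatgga
ACSBG2: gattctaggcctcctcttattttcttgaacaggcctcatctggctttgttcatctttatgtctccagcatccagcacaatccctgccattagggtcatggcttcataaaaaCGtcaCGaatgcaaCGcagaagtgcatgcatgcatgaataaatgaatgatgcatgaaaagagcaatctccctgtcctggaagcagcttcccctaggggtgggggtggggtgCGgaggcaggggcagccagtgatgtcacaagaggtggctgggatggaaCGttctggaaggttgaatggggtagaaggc
GP6: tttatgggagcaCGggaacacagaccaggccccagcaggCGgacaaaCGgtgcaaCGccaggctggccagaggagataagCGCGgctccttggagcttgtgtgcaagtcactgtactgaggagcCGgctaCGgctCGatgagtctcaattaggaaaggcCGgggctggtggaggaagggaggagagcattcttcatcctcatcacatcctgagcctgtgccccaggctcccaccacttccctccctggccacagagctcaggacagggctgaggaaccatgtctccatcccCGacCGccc
CKM: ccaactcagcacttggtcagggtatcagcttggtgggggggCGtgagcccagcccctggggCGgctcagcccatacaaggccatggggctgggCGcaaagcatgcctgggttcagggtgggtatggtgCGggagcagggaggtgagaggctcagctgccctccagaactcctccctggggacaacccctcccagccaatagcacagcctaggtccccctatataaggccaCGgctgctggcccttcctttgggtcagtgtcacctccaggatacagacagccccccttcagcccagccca
CEBPA: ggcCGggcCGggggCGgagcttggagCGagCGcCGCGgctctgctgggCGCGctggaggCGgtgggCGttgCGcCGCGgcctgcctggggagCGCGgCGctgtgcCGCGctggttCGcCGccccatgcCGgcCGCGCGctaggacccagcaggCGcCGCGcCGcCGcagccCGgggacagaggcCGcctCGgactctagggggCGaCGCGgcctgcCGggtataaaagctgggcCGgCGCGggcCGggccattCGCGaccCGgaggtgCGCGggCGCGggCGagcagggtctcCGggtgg
RSPH6A: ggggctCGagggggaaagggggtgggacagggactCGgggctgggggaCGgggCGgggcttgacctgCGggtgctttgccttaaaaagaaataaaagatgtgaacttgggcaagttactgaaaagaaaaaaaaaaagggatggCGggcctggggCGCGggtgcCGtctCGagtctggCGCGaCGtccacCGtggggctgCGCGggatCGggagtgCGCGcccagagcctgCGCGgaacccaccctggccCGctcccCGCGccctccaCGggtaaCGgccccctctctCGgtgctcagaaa
The enriched BBC3, ACSBG2 and GP6 promoters had 5, 5 and 12 CG dinucleotides and a GC content of 48.0%, 51.0% and 61.3%. The depleted CEBPA and RSPH6A promoters had 50 and 27 CG dinucleotides and a GC content of 80.7% and 65.7%. CKM was an exception in CG, with 5, though its GC content was 64.3%. CG occurred in 98.3% of all 12038 RefSeq promoters matched to a window, with a median of 23, and runs of GGG on either strand in 99.8%, so that the presence of either says little about a promoter. These starts lay 1 to 387 bp from the window centre.

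The chromosome 19 windows took a larger share of promoter reads in the pull-down than in the input. They held 7.03% and 7.12% of promoter reads in KD OGAP, 8.0% and 7.90% in WT OGAP, 6.64% and 6.60% in KD input, and 6.75% and 6.96% in WT input. All 4 OGAP libraries lay above all 4 inputs, and both WT OGAP libraries above both KD OGAP libraries. The 95% Wilson interval of a share was at most ± 0.0876 percentage points, which covers counting error only. Group means were 7.08 ± 0.066% in KD OGAP, 7.95 ± 0.070% in WT OGAP, 6.62 ± 0.027% in KD input and 6.85 ± 0.146% in WT input (SD, n = 2 each).

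The share was 0.777 percentage points higher in OGAP than in input (exact permutation test, 4 libraries against 4, two-sided p = 0.0286, the smallest this design allows). Permuting the labels within KD and within WT gave an exact permutation p of 0.0556. Over named windows alone the difference was 0.326 points (exact permutation p = 0.143), and without any 1 of the 4 input libraries the exact permutation p was 0.0857. In OGAP the share was 0.871 points lower in KD than in WT, and in input 0.234 points lower (exact permutation p = 0.333 each, the smallest that 2 against 2 libraries allow). The excess of OGAP over input was 0.637 points smaller in KD than in WT (exact permutation over 36 arrangements, p = 0.333).

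**Figure D1:**
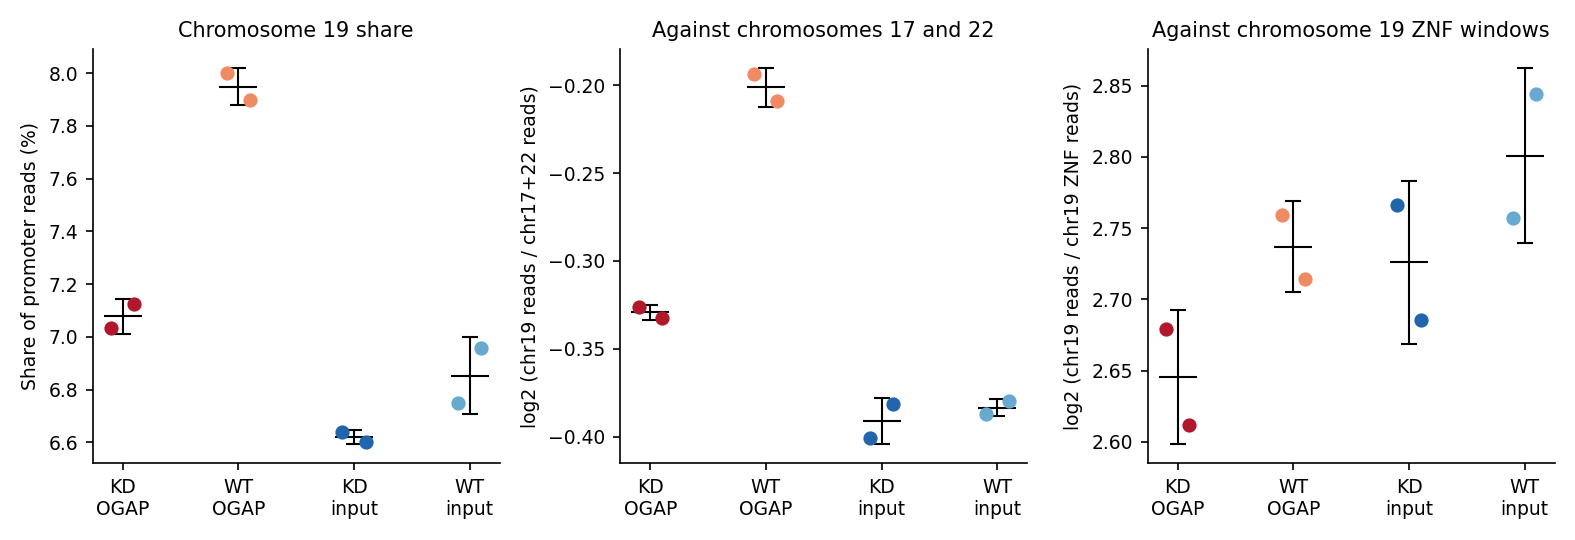
Values of the 8 libraries for the chromosome 19 windows without ZNF genes (points, 1 per library; bars, mean ± SD of 2 libraries): their share of promoter reads in percent, and the log2 ratio of their reads to those of chromosomes 17 and 22 and to those of the chromosome 19 ZNF windows. WT OGAP stood highest in the first 2 panels, with shares of 8.0% and 7.90%, and the groups overlapped in the third.

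Chromosomes 17 and 22, also dense in genes and GC, served as a comparison. The log2 ratio of chromosome 19 reads to reads of chromosomes 17 and 22 together was −0.33 and −0.33 in KD OGAP, −0.19 and −0.21 in WT OGAP, −0.40 and −0.38 in KD input, and −0.39 and −0.38 in WT input. The 4 OGAP libraries again lay above the 4 inputs, by a mean of 0.12 on the log2 scale (two-sided exact permutation p = 0.0286, as small as 4 against 4 allows). Over named windows alone the difference was 0.05 (exact permutation p = 0.2), permuting within KD and within WT gave an exact permutation p of 0.0556, and without any 1 of the 4 input libraries it was 0.0857. Against the 241 ZNF windows of the same chromosome the log2 ratio was 0.07 lower in OGAP than in input (exact permutation p = 0.171), and the groups overlapped. Among 25 sets of windows (each other autosome, X, the mitochondrial genome, and chromosome 19 divided into ZNF and other windows), the ZNF windows had the highest median log2 change of OGAP over input in WT, 0.32, and the other chromosome 19 windows the next, 0.22. Chromosome 7 followed with 0.05.

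**Figure D2:**
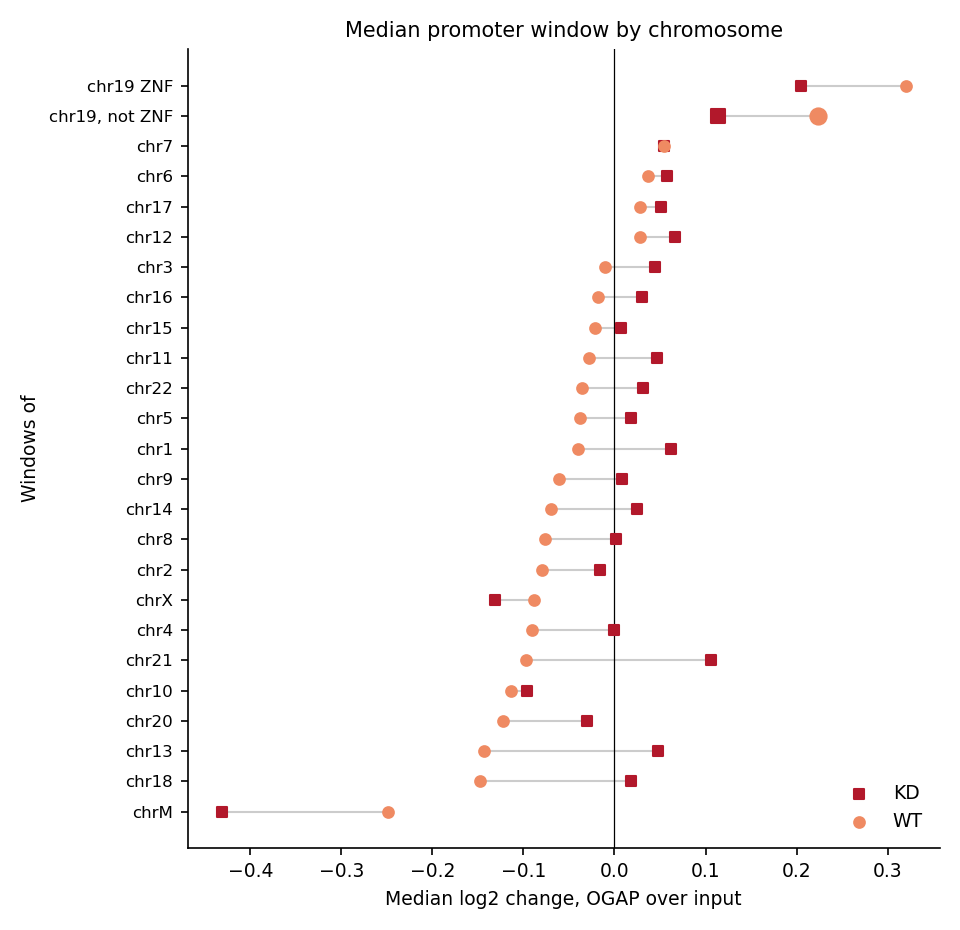
Median log2 change of OGAP over input across the tested promoter windows of each chromosome (one row each, ordered by WT; squares KD, circles WT; chrM is the mitochondrial genome). The chromosome 19 windows without ZNF genes stood at 0.11 in KD and 0.22 in WT, against 0.03 and −0.02 over all windows. In KD the ZNF windows stood at 0.20 and chromosome 21 at 0.11.

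Window by window, 1047 of the 1230 (85.1%) had enough reads to be tested, 787 of them with a gene name. In WT, OGAP over input was higher in 180 windows and lower in 44 (edgeR quasi-likelihood test, Benjamini-Hochberg adjusted p under 0.05 over 17130 windows). That is 17.2% higher and 4.20% lower, against 9.25% and 4.45% over all tested windows, and 21.4% against 13.7% in either direction. Of the chromosome 19 ZNF windows 16.1% were higher and 2.15% lower, near the share of the other chromosome 19 windows. On chromosomes 17 and 22 together 11.3% were higher and 5.65% lower, or 16.9% in either direction. On chromosome 16, 14.3% were higher. The median log2 change was 0.22 over chromosome 19 windows and −0.02 over all tested windows, and 60.4% of the chromosome 19 windows stood above 0. DESeq2 called 148 of 1197 chromosome 19 windows and 1203 of all 19505. Without any 1 of the 4 WT libraries the edgeR count fell, on chromosome 19 and over all windows. The median log2 change was then 0.19 to 0.30 over chromosome 19 windows and −0.03 to −0.01 over all windows.

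The ranking that follows is over windows with a gene name, no overlap and at least the median count. Those enriched most firmly in WT belonged to genes of unrelated function. The smallest edgeR adjusted p over the chromosome 19 windows, 1.2e-08, was that of an unnamed window. BBC3 encodes PUMA, a p53-induced protein that triggers apoptosis. Its window, on the minus strand at 47231767 to 47233767 of chromosome 19, held 74 and 55 reads in KD OGAP, 68 and 82 in WT OGAP, 39 and 35 in KD input, and 52 and 34 in WT input. As CPM, the reads scaled to library size by TMM, that was 129 ± 6.50 in KD OGAP, 205 ± 16.6 in WT OGAP, 54.7 ± 2.02 in KD input and 57.3 ± 18.7 in WT input (SD, n = 2 each). Both OGAP groups lay above both inputs without overlap. The log2 change of OGAP over input was 1.84 ± 0.29 in WT (SE, here and below back-calculated from the F value and so approximate), with an edgeR adjusted p of 2.2e-06.

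ACSBG2, an acyl-CoA synthetase, had 119 and 163 CPM in KD OGAP, 230 and 211 in WT OGAP, 50.4 and 85.3 in KD input, and 61.0 and 70.0 in WT input (chromosome 19, 6134246 to 6136246, plus strand). Its log2 change in WT was 1.75 ± 0.28 (edgeR adjusted p = 4.4e-06). GP6, the platelet receptor for collagen, had 88.3 and 110.6 CPM in KD OGAP, 153 and 159 in WT OGAP, 46.1 and 64.0 in KD input, and 43.4 and 37.6 in WT input (55037265 to 55039265, minus strand). Its log2 change in WT was 1.94 ± 0.32 (edgeR adjusted p = 5.1e-06). In both windows the KD OGAP libraries stood between the inputs and the WT OGAP libraries.

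The next 7 of this ranking by p-value in WT had log2 changes of 1.64 to 1.83. They were DHPS, deoxyhypusine synthase, which starts the modification of a translation factor, INSL3, a hormone of Leydig cells, and FUT5, a fucosyltransferase. The others were CREB3L3, a transcription factor of liver, VSTM1, an inhibitory receptor of leukocytes, DUS3L, which modifies transfer RNA, and SEMA6B, a semaphorin.

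In the same ranking, the windows depleted most firmly in WT included several for transcription factors. SIX5, a homeobox factor, had the largest decrease among them. Its window, on the minus strand at 45768227 to 45770227 of chromosome 19, held 36 and 27 reads in KD OGAP, 11 and 6 in WT OGAP, 45 and 53 in KD input, and 67 and 92 in WT input. That was 64.9 and 60.9 CPM in KD OGAP, 31.2 and 15.9 in WT OGAP, 64.8 and 80.7 in KD input, and 90.9 and 119 in WT input, so that WT OGAP alone stood apart below the rest. The log2 change in WT was −2.16 ± 0.40 (edgeR adjusted p = 6.5e-05), and −0.21 ± 0.33 in KD (adjusted p = 0.859).

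CEBPA, a transcription factor of myeloid cells, liver and fat, had 66.7 and 27.1 CPM in KD OGAP, 11.4 and 29.1 in WT OGAP, 60.5 and 65.5 in KD input, and 88.2 and 76.5 in WT input. The OGAP groups overlapped each other. Its log2 change in WT was −2.00 ± 0.44 (edgeR adjusted p = 0.00085).

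JUND, a subunit of the AP-1 transcription factor, had 52.3 and 56.4 CPM in KD OGAP, 39.8 and 26.4 in WT OGAP, 80.7 and 51.8 in KD input, and 100.4 and 105 in WT input. Its log2 change was −1.64 ± 0.38 in WT (edgeR adjusted p = 0.0014, and 0.054 without the second WT OGAP library). JUNB, another AP-1 subunit, had a log2 change of −1.44 ± 0.36 in WT (edgeR adjusted p = 0.0036, and 0.056 without the first WT OGAP library). The other windows of this group were CKM, muscle creatine kinase, at −1.66, RSPH6A, a radial spoke protein of sperm flagella, at −1.62, ZBTB7A, a transcriptional repressor, at −1.85, MEX3D, an RNA-binding protein, at −1.66, ABCA7, a lipid transporter, at −1.46, and FAM174C at −1.32. Leaving out 1 WT library ended the call of ZBTB7A (edgeR adjusted p = 0.10), MEX3D (0.087), ABCA7 (0.12) and FAM174C (0.058).

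**Figure D3:**
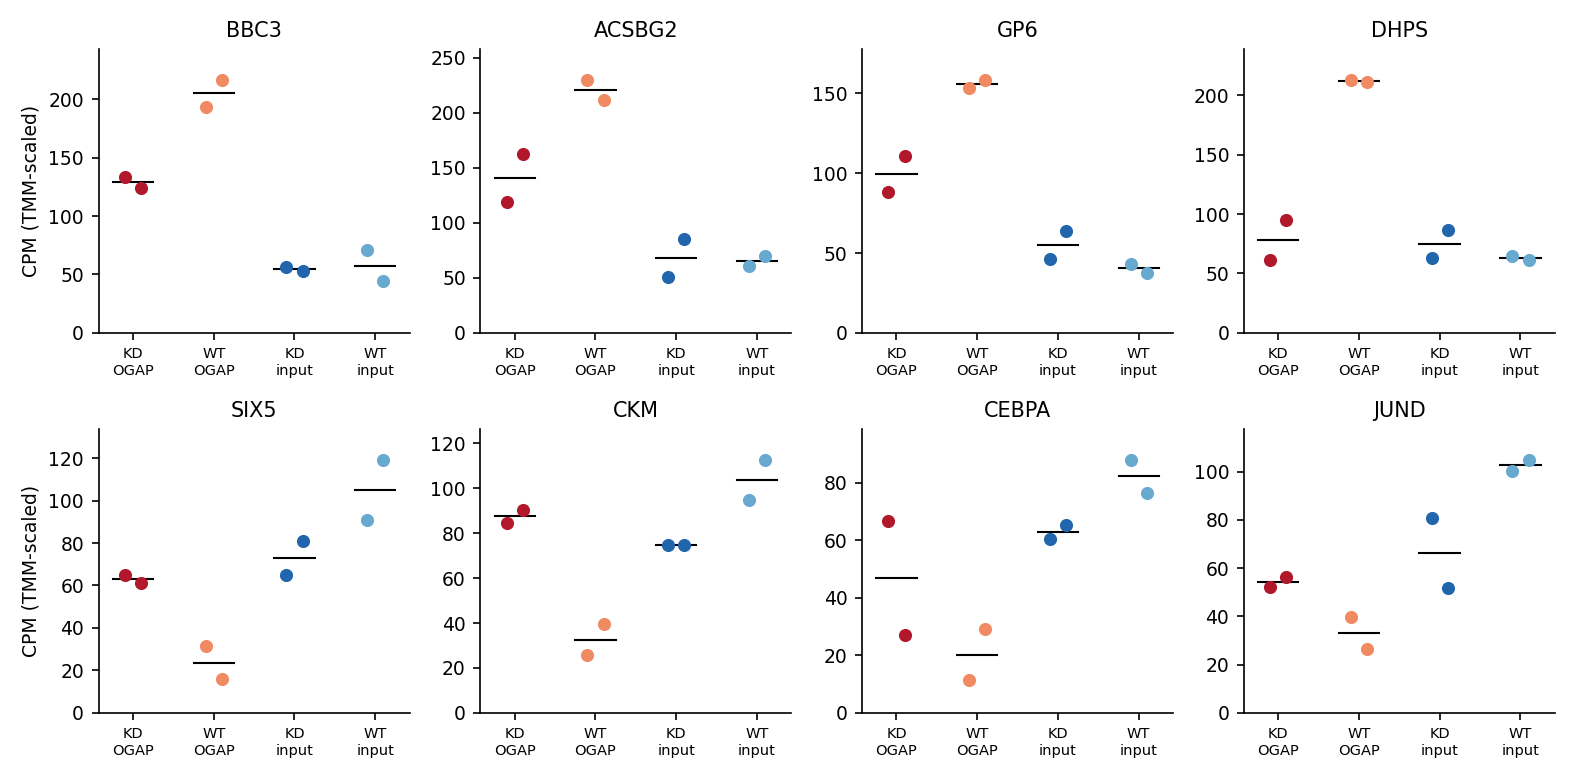
TMM-scaled CPM in the 8 libraries (points; lines, mean of 2) for 4 windows enriched and 4 depleted in WT OGAP over input. In the SIX5 window the WT OGAP libraries held 31.2 and 15.9 CPM, below the other 6, and in the DHPS window 213 and 211, above the other 6.

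Gene groups of chromosome 19 are described by how many windows passed the test in WT. Their counts stand beside 17.2% higher and 4.20% lower over the tested chromosome 19 windows, and 9.25% and 4.45% over all windows, whose median was −0.02; the groups were not tested against each other. Of 18 tested windows for immediate early and signal-regulated transcription factors, 6 fell (33.3%; TCF3, KLF16, NFIC, JUNB, JUND and CEBPA) and none rose. Their median log2 change was −0.33 and their median promoter GC content 74.0%. Among named windows with a promoter GC content of 72.3% to 94.0%, 15.1% of 119 on chromosome 19 fell in WT. On other chromosomes 12.2% of 1930 did. The part of GC content in the share of this group was not tested. TCF3, a helix-loop-helix factor of lymphocytes, changed by −1.75 ± 0.47 (edgeR adjusted p = 0.0058), KLF16, a GC-box binding factor, by −1.35 ± 0.39 (0.012), and NFIC, a nuclear factor I protein, by −1.28 ± 0.35 (0.0081). Each of these 3 lost its call without the first WT OGAP library, with adjusted p of 0.055 to 0.12.

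Of 21 windows for transcription, chromatin and RNA processing, 4 rose (19%; MED16, DOT1L, PRMT1 and TRIM28) and none fell, with a median of −0.47. The 4 are a Mediator subunit, a histone methyltransferase, an arginine methyltransferase and a corepressor of KRAB zinc fingers, at log2 changes of 0.97, 2.33, 1.04 and 0.95. The DOT1L window overlaps another and held few reads, and all 4 calls were lost without 1 of the WT libraries.

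In the clusters of leukocyte receptors, olfactory receptors and NLRP genes the windows that passed were all on the higher side. Of 30 tested windows for leukocyte receptors, 6 rose (20.0%, near the share over chromosome 19; SIGLECL1, SIGLEC10, VSTM1, TARM1, FCAR and GP6) and none fell, with a median of 0.42 and 25 above 0. VSTM1 changed by 1.78 ± 0.31 (edgeR adjusted p = 1.5e-05) and TARM1, a receptor of myeloid cells, by 1.63 ± 0.32 (adjusted p = 0.00014). FCAR, the receptor for IgA, changed by 1.26 ± 0.41 (adjusted p = 0.028) but by 0.24 without the second WT OGAP library. SIGLECL1, SIGLEC10 and FCAR lost their calls without the second WT OGAP library and without the second WT input library (adjusted p of 0.093 to 0.85). Of 8 olfactory receptor windows, 4 rose (50%; OR4F17, OR7G1, OR7E24 and OR7C2), with a median of 0.86 and a median promoter GC content of 37.0%. All but OR4F17 lost their calls without the first WT OGAP library or without the second WT input library (adjusted p of 0.075 to 0.26).

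OR4F17, the first window of the chromosome (106460 to 108460), held 13 and 16 reads in KD OGAP, 17 and 20 in WT OGAP, 11 and 12 in KD input, and 6 and 3 in WT input. Its log2 change in WT was 3.04 ± 0.64 (edgeR adjusted p = 0.00039). Members of this receptor family near chromosome ends have near-identical copies, so the reads assigned to it are uncertain.

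Of the 5 tested NLRP windows, for sensors of innate immunity and oocyte proteins, 4 rose (80.0%; NLRP12, NLRP9, NLRP13 and NLRP8, log2 changes of 1.07 to 1.38), with a median of 1.09. Each lost its call without the first WT OGAP library or the second WT input library (adjusted p of 0.074 to 0.30). All 14 windows of the CEACAM and PSG cluster, for adhesion proteins and placental glycoproteins, stood above 0, though 1 passed the test, CEACAM20, at 1.24 ± 0.35 (edgeR adjusted p = 0.010). Members of the CEACAM and PSG cluster resemble each other closely and the NLRP genes are related, so reads may be split between copies. This was not tested. Of 7 lipid metabolism windows, 3 rose (42.9%): ANGPTL6 by 1.11, APOE, the apolipoprotein of lipid clearance, by 1.40, and APOC2, the cofactor of lipoprotein lipase, by 0.93. Among 14 zinc finger genes without a ZNF name, ZBTB32, ZIM3 and ZSCAN4 rose (21.4%) and ZBTB7A fell. Of the calls named for the gene groups here, those of CEBPA, CKM, VSTM1, TARM1, GP6 and OR4F17 passed without any 1 library, and each of the others was lost without at least 1 of the 4 WT libraries.

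Genes that act on oxidative damage did not pass the test. None of 7 tested DNA repair windows did, with a median of 0.55 and a range of −0.87 to 0.82, and LIG1, a DNA ligase, had too few reads to be tested. XRCC1, a scaffold protein of single-strand break repair, had no window that could be named. None of 7 antioxidant windows passed either, with a median of 0.06. GPX4, which reduces lipid peroxides, had a log2 change of 0.06 ± 0.30 in WT, and its sign depended on the scaling, being −0.01 with total reads. PRDX2, a peroxiredoxin, had −0.29 ± 0.36, and DOHH, which completes the modification that DHPS starts, had 0.24 ± 0.33.

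KEAP1, the oxidant sensor that restrains NRF2, held 84.7 and 108 CPM in KD OGAP, 117 and 100.4 in WT OGAP, 44.7 and 38.1 in KD input, and 52.9 and 67.5 in WT input. All OGAP libraries lay above all inputs, with log2 changes of 1.21 ± 0.33 in KD and 0.84 ± 0.32 in WT, but neither passed (edgeR adjusted p = 0.055 and 0.063). The change in KD passed without either of the WT OGAP libraries (edgeR adjusted p = 0.048 and 0.044), which are not themselves compared there.

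In each of the remaining groups 2 windows or fewer passed. Of 17 respiratory chain and mitochondrial windows 2 rose in WT (11.8%): NDUFB7 of complex I by 1.24 ± 0.31 and COX6B1 of cytochrome oxidase by 1.55 ± 0.33 (edgeR adjusted p = 0.0036 and 0.00050). Among 11 kallikrein proteases KLK11 alone (9.09%) rose, by 1.35. Among 9 cytochrome P450 windows CYP2F1 rose by 1.11 and CYP2S1 fell by 1.07 on the log2 scale. Of 6 muscle genes CKM fell. No window passed among 6 tested ribosomal protein genes, 9 of spindle and cell division, 5 for chorionic gonadotropin and LHB, 8 of interferon and innate signalling, and 15 for ion channels and synapse, with medians of 0.39, 0.08, −0.57, 0.49 and −0.22.

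Over the chromosome 19 windows the pull-down ran against GC content. Promoter GC was known for 640 of the 787 named tested windows (81.3%). It was measured from 250 bases before to 50 bases after the RefSeq start, not over the 2001 bp window in which reads were counted. It was not known for unnamed windows, so that what follows is about named ones. The 80 promoters of windows higher in WT had a median GC content of 59.3% and 10 CG dinucleotides, the 39 of lower windows 71.0% and 30, and the 521 that passed in neither direction 65.0% and 23. Across these 640 windows of the same libraries, the log2 change correlated with GC at Pearson r = −0.43 (Spearman −0.42) in WT and −0.34 (Spearman −0.35) in KD. On other chromosomes r was −0.36 in WT over 9742 windows. The windows share libraries, depth and base composition and are not independent.

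Within each of 5 classes of promoter GC content, the median of named chromosome 19 windows lay above that of other chromosomes in WT. In the lowest class, 24.3% to 51.3%, the median log2 change was 0.85 over 52 chromosome 19 windows against 0.28 over 2070 others. In that class 18 of the 52 rose (34.6%), against 10.2% of the others. In the highest class, 72.3% to 94.0%, the medians were −0.29 over 119 windows and −0.48 over 1930 others. In KD the corresponding medians were 0.37 against 0.19 in the lowest class and −0.18 against −0.20 in the highest.

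Averaged over the 5 classes, a library's median log2 CPM of chromosome 19 windows minus that of other chromosomes was 0.30 and 0.29 in KD OGAP, 0.51 and 0.49 in WT OGAP, 0.22 and 0.20 in KD input, and 0.24 and 0.24 in WT input. All OGAP libraries lay above all inputs, by a mean of 0.18 (exact permutation test, 4 against 4, two-sided p = 0.0286), and both WT OGAP libraries above both KD OGAP libraries. This alternative was added after the data were seen. The classes are wide and hold named windows only, 61.1% of the chromosome 19 windows tested, and the part of GC content in the difference was not tested.

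**Figure D4:**
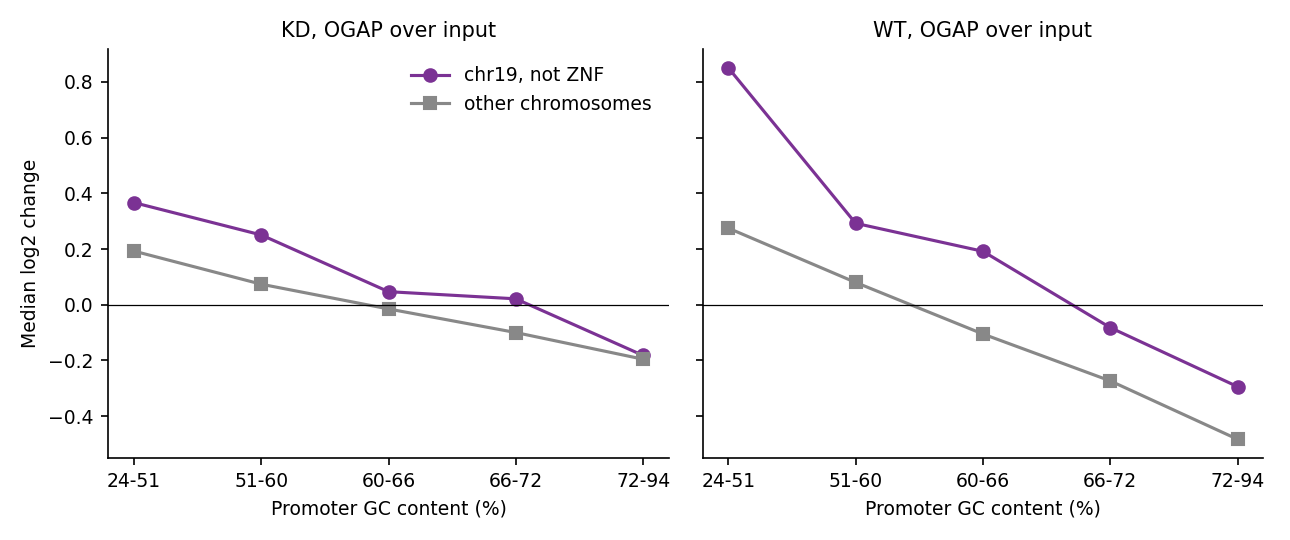
Median log2 change of OGAP over input in 5 classes of promoter GC content (x axis, percent) for chromosome 19 windows without ZNF genes (circles) and windows of other chromosomes (squares), in KD (left) and WT (right). Both lines fall with GC in both panels, and in WT the chromosome 19 line lies above the other in every class, at 0.85 against 0.28 in the lowest.

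Windows without a gene name leaned further toward the pull-down, on chromosome 19 and elsewhere. In WT 70 of 260 unnamed chromosome 19 windows rose (26.9%) and 3 fell, with a median log2 change of 0.52, against 110 of 787 named windows (14%) and a median of 0.13. On other chromosomes 15.3% of unnamed and 7.04% of named windows rose, with medians of 0.22 and −0.10.

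In KD, far fewer windows passed. OGAP over input was higher in 16 chromosome 19 windows and lower in 1 (edgeR, adjusted p under 0.05), which is 1.62% of those tested, against 0.736% of all windows in either direction, 0.63% higher and 0.105% lower. On chromosomes 17 and 22 together 1.55% passed in either direction, and of the chromosome 19 ZNF windows 1.61%. The share in KD was thus near that of these 2 comparison sets. The median log2 change was 0.11, against 0.03 over all windows and 0.05 on chromosomes 17 and 22. It was 0.20 over the ZNF windows and 0.11 on chromosome 21. The count was 0 without the second KD OGAP library or without the first KD input library, 2 without the second KD input library and 8 without the second WT input library. It was 8 with upper quartile scaling, 10 with RLE scaling or with total reads, and 8 over named windows alone.

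The named windows that rose in KD by the rule used for naming were BBC3 (1.23 ± 0.30), ZBTB32 (1.23 ± 0.29), PLA2G4C (1.17 ± 0.30), LTBP4 (1.17 ± 0.30) and C19orf18 (1.26 ± 0.33), with edgeR adjusted p of 0.020 to 0.042. ZBTB32 is a zinc finger repressor of lymphocytes, PLA2G4C a phospholipase and LTBP4 a binding protein of latent TGF-beta. NDUFB7 also rose in KD, by 1.28 ± 0.34 (adjusted p = 0.043). NECTIN2, a cell adhesion protein, was the 1 window that fell, with 39.6 and 40.6 CPM in KD OGAP, 54.0 and 47.6 in WT OGAP, 86.4 and 122 in KD input, and 94.9 and 112 in WT input. The OGAP libraries lay below the inputs in both states, and its log2 change was −1.37 ± 0.34 in KD (edgeR adjusted p = 0.024) and −1.02 ± 0.34 in WT (0.030). The WT call was lost with DESeq2 (adjusted p = 0.087) and, with edgeR, without any 1 of the 4 WT libraries (0.052 to 0.19). Each of these 7 calls in KD was lost when 1 of 3 or more single libraries was left out.

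Of the 16 windows higher in KD, 15 were also higher in WT, which is 93.8% of the KD set and 8.33% of the 180 in WT, and the 1 that fell in KD also fell in WT. Over all windows 88.9% of the 108 higher in KD were also higher in WT. Among the 180 windows higher in WT, 175 stood above 0 in KD too (97.2%, against 60.6% of all tested chromosome 19 windows), with a median of 0.72 in KD against 1.29 in WT. Among the 44 lower in WT, 39 stood below 0 in KD (88.6%, against 39.4%), with a median of −0.44 in KD against −1.28 in WT. Over all windows the sign was likewise kept in KD by 93.2% of the 1584 higher in WT and 84.0% of the 762 lower. The windows were chosen on their WT values, which by itself makes the WT medians larger, and no difference between states is read from these medians. The KD and WT comparisons share no library but share 1 estimate of the spread.

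**Figure D5:**
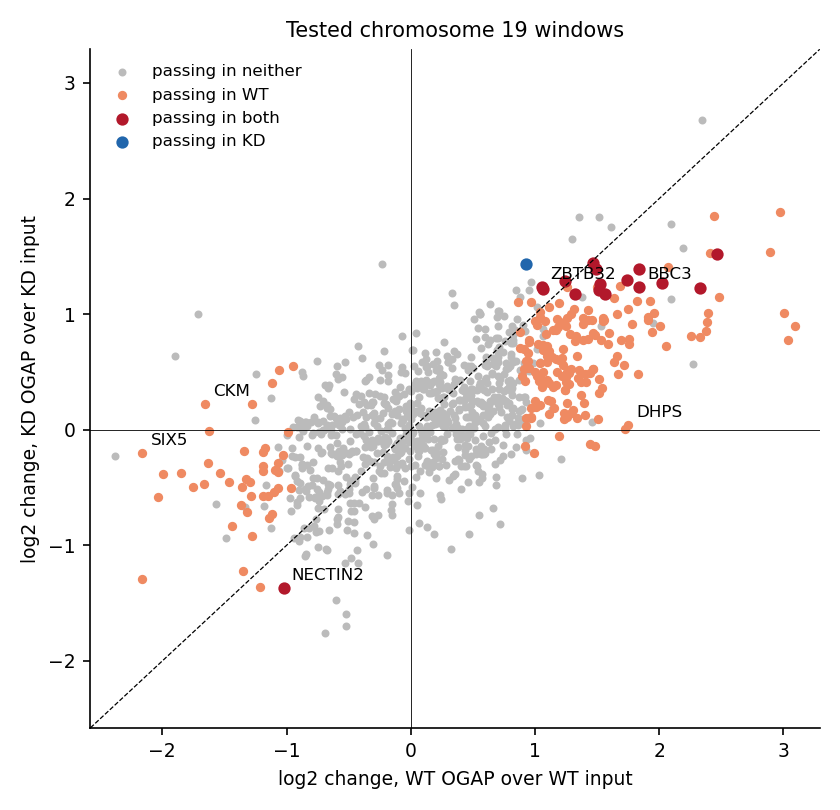
Log2 change of OGAP over input in KD (y axis) against WT (x axis) for the 1047 tested chromosome 19 windows, coloured by which comparison passed an adjusted p of 0.05; the dashed line marks equal change. BBC3 passed in both states, at 1.23 in KD and 1.84 in WT, DHPS and SIX5 in WT alone, and 15 of the 16 windows higher in KD were also higher in WT.

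Setting KD OGAP directly against WT OGAP, 1 of the 1047 windows passed, against 0.035% of all windows (0.0175% higher and 0.0175% lower), and it was lower. It was DHPS, which held 34 and 42 reads in KD OGAP, 75 and 80 in WT OGAP, 44 and 57 in KD input, and 48 and 47 in WT input. In CPM that was 61.3 and 94.8 in KD OGAP, 213 and 211 in WT OGAP, 63.4 and 86.8 in KD input, and 65.1 and 61.0 in WT input. The WT OGAP libraries stood above the other 6, and the KD OGAP libraries fell on both sides of the KD inputs. The log2 change between KD and WT OGAP was −1.46 ± 0.29 (edgeR adjusted p = 0.014). It did not pass with DESeq2 (adjusted p = 0.073), nor with edgeR without either WT OGAP library (0.075 and 0.073) or without the first KD OGAP library (0.41). Without the first WT OGAP library another window passed in its place, on the higher side. This was DBP, a transcription factor of the circadian clock, named here after its values were seen, at 3.52 (edgeR adjusted p = 0.041), against 0.98 ± 0.45 with all libraries (0.42).

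Over all 1047 windows the median log2 change of KD OGAP against WT OGAP was −0.18, against 0.01 over all tested windows, and 35.2% stood above 0. This was the lowest median among the 25 sets of windows, and in input the median of KD against WT was −0.06. Windows with the lowest p that did not pass were CKM (1.41 ± 0.39), TNNI3, cardiac troponin I (1.22 ± 0.36), and SWSAP1, a partner in recombination repair (1.28 ± 0.40), on the higher side. On the lower side they were PDCD2L (−1.21 ± 0.34) and RLN3, a relaxin peptide (−1.06 ± 0.30). Their edgeR adjusted p was 0.19 to 0.23. Neither GPX4 (−0.67 ± 0.33), PRDX2 (0.11 ± 0.38), KEAP1 (−0.17 ± 0.32) nor DOHH (−0.14 ± 0.34) passed, and leaving out 1 library turned the sign of the last 3.

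In input, KD against WT, no chromosome 19 window passed in edgeR (0 of 1047, and 0.0% of all windows), and no adjusted p was below 0.999. At an unadjusted p under 0.05 there were 43 (4.11%, against 4.41% of all windows). With DESeq2 the count was 0 as well, with 15 at an unadjusted p under 0.05. The windows with the lowest p were APOE, LEUTX and LGALS14 on the higher side and CCDC8, RELB and LILRB1 on the lower.

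The KD effect on OGAP over input, tested as an interaction, passed in 0 of the 1047 windows with edgeR and with DESeq2, against 0.00584% of all windows. There were 91 windows at an unadjusted p under 0.05 with edgeR and 58 with DESeq2, and the smallest adjusted p was 0.26. With edgeR the 91 are 8.69% of those tested, near the 8.14% of all windows and the 9.11% on chromosomes 17 and 22. The median interaction was −0.11 on the log2 scale. The windows with the lowest p were SIX5 (1.96 ± 0.54), CKM (1.88 ± 0.48) and PCP2, a Purkinje cell protein (1.5 ± 0.46), on the positive side, and DHPS (−1.71 ± 0.42), LIN37, a subunit of the DREAM complex (−1.63 ± 0.50), and FUT5 (−1.34 ± 0.44) on the negative side.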

How the data were processed

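DNA of 8 libraries was sequenced and reads were counted by the authors over 19957 promoter windows; the deposited counts are whole numbers, not normalized, and replicates were not pooled. Per the submitters' processing notes bedtools, featureCounts, MACS2 and BWA 0.7.17-r1188 were used with build hg38; the sources used here do not give their settings. The deposited coverage profiles, summed over all genes, were not used. The total of promoter reads per library sets the depth.

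A window took the symbol of a RefSeq protein-coding gene (GRCh38.p14) when that gene alone started on the same strand at most 500 bp from its centre, as 15648 windows did (78.4%), against 1.11% after a shift of 200 kb. RefSeq promoters matched 730 of the 888 named members. GGG was counted on both strands. The test of the counts was the quasi-likelihood test of edgeR 4.0.16 under R 4.3.3 (TMM, filterByExpr, 4 group means over all 8 libraries, threshold 0.05), checked on simulated data. The common coefficient of variation was 0.178, and 98.4 prior against 4 residual degrees of freedom drew each window's spread toward that of all windows, so an SE or p says little about that window's own libraries. Per-library values had exact permutation tests (scipy 1.17.1). DESeq2 1.42.0 was among the alternatives. Members and gene lists were chosen with earlier results of these data known. Genes named are the 10 windows a side with the lowest p in WT (named, not overlapping, of at least median count, which was 32.5 reads a library), up to 5 a side in KD, 3 a side elsewhere, list members that passed, and 10 genes chosen for their function.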

Additional observations from a re-analysis of the deposited data

Results flagged for a closer look

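In 3 of the windows reported by name here, OGAP over input ran opposite ways in KD and WT, with every OGAP library on the other side of its inputs. These 3 were named for their low p in KD against WT in OGAP or in the interaction. No share of such windows over all those tested is given, so the pattern may follow from that choice. The interaction was tested with edgeR and passed in none. CKM had 84.7 and 90.3 CPM in KD OGAP, 25.6 and 39.6 in WT OGAP, 74.9 and 74.6 in KD input, and 94.9 and 112.9 in WT input, an interaction of 1.88 ± 0.48 on the log2 scale (edgeR adjusted p = 0.26). PCP2 had 95.5 and 97.1 in KD OGAP, 56.8 and 50.2 in WT OGAP, 80.7 and 50.3 in KD input, and 96.3 and 110.3 in WT input, an interaction of 1.5 ± 0.46 (edgeR adjusted p = 0.324). TNNI3 had 102.7 and 108.3 in KD OGAP, 39.8 and 50.2 in WT OGAP, 85.0 and 68.6 in KD input, and 67.8 and 64.9 in WT input, an interaction of 1.01 ± 0.47 (edgeR adjusted p = 0.592). CKM and TNNI3 are muscle genes and PCP2 is known from Purkinje cells. Over the 6 tested windows of the muscle group the median interaction was −0.13, and only 2 stood above 0.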

How the results depend on the processing

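Alternatives changed 1 setting at a time. The larger share in OGAP was 0.777 points with labels permuted within KD and within WT (exact permutation p = 0.0556), 0.326 over named windows (p = 0.143) and 0.142 as a median log2 CPM (p = 0.0571), and 0.615 to 0.938 without any 1 library. The log2 ratio to chromosomes 17 and 22 was 0.122 within states (exact permutation p = 0.0556), 0.0508 over named windows (p = 0.2), and 0.0981 to 0.144 without any 1 library. Both lost their call without any 1 of the 4 input libraries (exact permutation p = 0.0857). Other share and ratio differences kept their sign in every setting run, without passing the threshold.

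The WT count of 224 became 148 with DESeq2 and 107 to 231 without any 1 library. The KD count of 17 became 10 with RLE scaling, 8 with upper quartile scaling, 10 with total reads, 8 on autosomes without chromosomes 10 and 12, 8 over named windows, and 0 to 25 without any 1 library. The count of 1 for KD against WT in OGAP became 0 with DESeq2, and 0 or 1 without any 1 library, the 1 being DBP, higher, in place of DHPS, lower, without the first WT OGAP library. Input and interaction counts were 0 throughout; a fit to only the groups compared equals the one used for the interaction and was not repeated.

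Same-numbered libraries did not deviate together window by window (correlations of −0.04 to 0.02 over all windows). Windows held few reads and the labels state no pairing, so whether the numbers pair libraries is not known. The replicate block gave counts of 216, 14, 1, 0 and 0, and 0.777 for the share and 0.122 for the ratio to chromosomes 17 and 22 (exact sign-flip permutation p = 0.125 each, the smallest for 4 pairs).

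Of 1716 refits of named windows, 1550 kept direction and side of the threshold, 152 lost and 2 gained a call (KEAP1 in KD), and 12 reversed, all in comparisons that had not passed. Without any 1 library, GPX4 ranged from −0.14 to 0.22 in WT (−0.012 with total reads) and from −0.68 to 0.14 in KD. PRDX2 ranged from −1.05 to 0.21 in WT and from −0.43 to 0.86 for KD against WT in OGAP, where KEAP1 ranged from −0.35 to 0.0038 and DOHH from −0.35 to 0.088. DOHH ranged from −0.00080 to 0.45 in WT and from −0.051 to 0.31 in KD.

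Windows held few reads, a median of 24 to 47 a library, so small differences were not detectable at this depth.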

Other observations

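Along the chromosome the pull-down was uneven. In WT the median log2 change was 0.06 over 140 tested windows in the first 5 Mb, 0.57 over 97 windows between 5 and 10 Mb, where 26 rose and 2 fell, and 0.38 over 115 windows between 10 and 15 Mb. It was 0.00 over 72 windows beyond 55 Mb. Over the first of these stretches the median promoter GC content was 70.0%, and over the second 65.3%; its part in the difference was not tested. The stretch from 5 to 10 Mb had the lowest median of KD against WT in OGAP, −0.33, against −0.18 over all chromosome 19 windows. That comparison uses the same WT OGAP libraries as OGAP over input in WT, so it is no independent observation. Before the widest gap between windows (24034404 to 29212542) 20.0% of 474 windows rose in WT and 4.43% fell, and after it 14.8% of 573 rose and 4.01% fell.

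The neighbourhood of SIX5, picked after its value was seen, was mixed. Of 11 windows within 100 kb, SIX5 included, 9 could be tested, 6 had a negative log2 change in WT and 3 fell: SIX5 (−2.16), RSPH6A (−1.62) and FOXA3 (−2.17, a window that overlaps another). DMPK, the myotonic dystrophy kinase gene next to SIX5, stood at −0.11, DMWD at −0.37, and FBXO46 and MEIOSIN on the other side at 0.53 and 0.47. In KD the SIX5 and RSPH6A windows had −0.21 and −0.01.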
